A study of Homo sapiens with 6 samples.

Results

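Dermcidin (DCD, ENSG00000161634) is a single gene, 1 of the 10487 genes in the deposited expression table of MDA-MB-468 cells with raised IGFBP2. It was chosen on its measured values: the size of its difference between the IGFBP2 overexpression and control libraries, its rank in the control libraries and its covariation with other genes. All of these are therefore given for DCD as a description, without a test. MDA-MB-468 is an established triple-negative breast cancer cell line. All 6 libraries came from untreated MDA-MB-468 cells, with 3 control libraries whose genotype is labelled WT and 3 libraries labelled as IGFBP2 overexpression, which the labels call biological replicates. IGFBP2 is a secreted protein that binds insulin-like growth factors. Its gene was raised from its own promoter with dCas9-VPH, a Cas9 that no longer cuts DNA and is joined to activation domains, and a guide RNA, both brought in with lentivirus and followed by drug selection and cell sorting. The sources used here do not say that the control cells carry the activator or a guide, so raised IGFBP2, the activator and the selection cannot be told apart in any comparison here.

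Dermcidin is a small secreted protein best known from eccrine sweat glands, which release it onto the skin. In sweat it is cut by proteases into peptides that act against bacteria, while another stretch of the same precursor has been described as a survival peptide for neurons and tumour cells. Its messenger RNA is seldom abundant outside sweat glands, but some breast tumours and breast cancer cell lines make it.

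In the GENCODE 44 annotation of GRCh38, DCD lies on the minus strand of chromosome 12 from 54644589 to 54648493, a gene of 3905 bases with 3 annotated transcripts, and no other gene model overlaps it. Its canonical transcript has 5 exons and 519 spliced bases. The activator was aimed at another promoter, on chromosome 2, so the sequence of DCD's own promoter is shown for reference. These are the 250 bases upstream of the RefSeq start (GRCh38.p14, minus strand, chr12:54648366-54648615), with capitals marking matches on either strand to 3 short motifs. The GENCODE gene starts further upstream than the RefSeq one, so the last 128 bases of this window lie inside the GENCODE gene.
DCD upstream sequence: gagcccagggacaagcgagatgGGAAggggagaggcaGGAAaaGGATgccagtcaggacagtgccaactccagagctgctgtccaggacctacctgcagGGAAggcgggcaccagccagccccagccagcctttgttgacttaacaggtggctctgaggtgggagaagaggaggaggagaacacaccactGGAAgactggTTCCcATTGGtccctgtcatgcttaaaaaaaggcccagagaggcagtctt
The window held 5 matches to the motif GGAA, the core letters of ETS factor sites (4 as written and 1 as its complement), where 92.7% of 35116 RefSeq promoter windows of the same length held at least 1. GGAT, the core letters preferred by the ETS-family factor SPDEF, had 1 match (70.7% of promoters had any). CCAAT, the core letters of the NF-Y site, had 1 in its complement form (32.0% of promoters). TATAAA, the TATA box, had none (10.7% of promoters). GGAA and GGAT share their first letters but no match was counted under both. The CCAAT match and 2 of the GGAA matches lie in the stretch inside the GENCODE gene. The window held 2 CpG dinucleotides, against a median of 11 over all promoters, and 22.9% of promoters had as few. Its GC content was 58%, equal to the median. These motifs were chosen after the expression data were seen, and a match is only a match of letters.

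DCD was among the more abundant transcripts of the control cells and a low-abundance one in the IGFBP2 overexpression cells. Expression was measured with QuantSeq, which reads one fragment near the 3′ end of each transcript, so CPM (read counts scaled to a common library total) are not divided by gene length. DCD stood at 266, 344 and 142 CPM in control replicates 1, 2 and 3. In the cells with raised IGFBP2, replicates 1, 2 and 3 had 14.4, 11.9 and 18.7 CPM. The groups did not overlap: the lowest control library, replicate 3, was 7.56-fold above the highest IGFBP2 overexpression library, also a replicate 3. The mean was 251 ± 102 CPM in control and 15.0 ± 3.43 CPM in IGFBP2 overexpression cells (SD, n = 3 each), a ratio of 16.7. On the log2(CPM + 1) scale the difference was -3.90 (SE 0.33), the lowest of all 10487 genes, whose median difference was 0.0001. The next lowest values were -3.53 for FST, which encodes the activin inhibitor follistatin, and -3.07 for IGFBP5, another IGF binding protein. In all, 13 genes (0.124%) had a difference under -2. In bulk RNA of this kind, fewer cells expressing DCD and less DCD RNA per cell cannot be told apart.

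**Figure D1:**
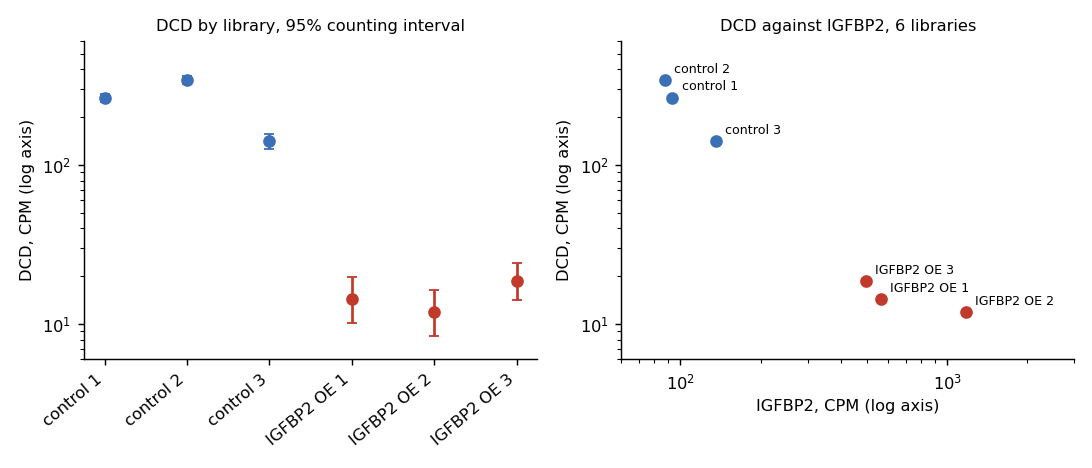
Left, DCD in CPM on a log axis in each of the 3 control (blue) and 3 IGFBP2 overexpression (IGFBP2 OE, red) libraries, with bars for the exact 95% counting interval; right, DCD against IGFBP2, both in CPM on log axes, with one point per library. DCD lies between 142 and 344 CPM in control and between 11.9 and 18.7 CPM in IGFBP2 overexpression libraries, and among the control libraries DCD is higher where IGFBP2 is lower. The counting intervals of the 3 IGFBP2 overexpression libraries overlap.

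Read numbers did not limit the comparison. The libraries held 2497353 to 4579587 reads on the listed genes, and DCD itself had 1198, 1238 and 350 reads in the control libraries and 37, 37 and 57 in the IGFBP2 overexpression libraries. The exact 95% Poisson intervals in control were 251.1 to 281, 325 to 364 and 127 to 157 CPM, and none of them overlapped another. In IGFBP2 overexpression cells they were 10.2 to 19.9, 8.41 to 16.5 and 14.2 to 24.3 CPM, which overlap one another, so the order of those 3 libraries was not resolved at this depth. Intervals of this kind cover counting error only, since the reads carried no molecular identifiers in the deposited values. Every IGFBP2 overexpression library still had reads on DCD.

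The level of DCD fixed its place among the other genes of each library. Ranked by CPM, DCD was gene 623, 418 and 1346 of 10487 in the control libraries, within the top 5.94%, 3.99% and 12.8%. In the IGFBP2 overexpression libraries it was gene 7540, 8065 and 6741, past the top 71.9%, 76.9% and 64.3%. By mean CPM it was gene 638 in control and gene 7470 in IGFBP2 overexpression cells, and the median gene of the control cells had 30.7 CPM. The genes next to DCD in control level on the CPM scale belong to basic cell functions, among them UQCR11 (respiratory complex III, 250.9 CPM), OST4 (protein glycosylation, 250.86 CPM), KMT2A (a histone methyltransferase, 250.3 CPM) and EIF4E2 (cap binding, 249.7 CPM). The log2 differences of these 4 genes were -0.0042, 0.17, -0.40 and -0.0054, and none passed the test across all genes described below for the gene lists.

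DCD was unusually variable among the control libraries. Its highest control library was 2.43-fold above its lowest. The SD of its log2 values over the control libraries was 0.66, while the 200 genes nearest to it in control level had a median SD of 0.21, and 3 of those 200 varied more. Counting error at the mean number of control reads was 3.28% of the level, against an SD of 40.8% of the mean. In the IGFBP2 overexpression cells the spread of DCD was ordinary for its level. The log2 SD was 0.31 against a median of 0.26 for the 200 nearest genes, 73 of which varied more. The SD there was 22.8% of the mean and counting error 15.1%. Control replicate 3, which had the lowest DCD of the control libraries, was also the control library with the most IGFBP2.

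IGFBP2, the targeted gene, stood at 93.5, 87.3 and 136 CPM in the control libraries and at 566, 1176 and 498 CPM in the IGFBP2 overexpression libraries. Its mean went from 106 ± 26.4 to 747 ± 373 CPM (SD, n = 3 each), a log2 difference of 2.73 (SE 0.33), and it rose with an adjusted p of 0.0148 (limma, Benjamini-Hochberg adjustment over all genes). DCD was highest in control replicate 2, where IGFBP2 was lowest, and lowest among the controls in replicate 3, where IGFBP2 was highest of the controls. By measured values the order of DCD over the 6 libraries was the reverse of that of IGFBP2, but counting error left the order of DCD among the 3 IGFBP2 overexpression libraries unresolved. Pearson's r of their log2 values was -0.98 over the 6 libraries, which is mostly the difference between groups, and -0.74 for deviations from the group means. By measured values another 32 genes also had the reverse of DCD's order and 32 had the same order, so the arrangement was not particular to IGFBP2.

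Within 1 Mb on either side, GENCODE 44 holds 107 gene models, 43 of them protein coding, and 16 of the 107 were among the listed genes. All 16 lie on the lower-coordinate side, towards the HOXC cluster, and none lies on the other side. The 2 neighbours with related secretory functions, LACRT (lacritin, a tear protein, 9.694 kb away) and MUCL1 (a small mucin-like protein of breast and sweat glands, 182 kb away), were not among the listed genes, so no value is given for them. Of the 16 neighbours, limma called 0 lower and 0 higher at an adjusted p of 0.05, where 0.629% of all 10487 genes were called, and 4 (25%) had an unadjusted p under 0.05, against 13% of all genes. The median log2 difference of the 16 was 0.0086, with 8 below 0. The 3 control and 3 IGFBP2 overexpression values did not overlap for 1 lower neighbour (PPP1R1A) and 1 higher one (HOXC11), where 18% of all genes had groups that did not overlap (9.43% higher and 8.61% lower).

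**Figure D2:**
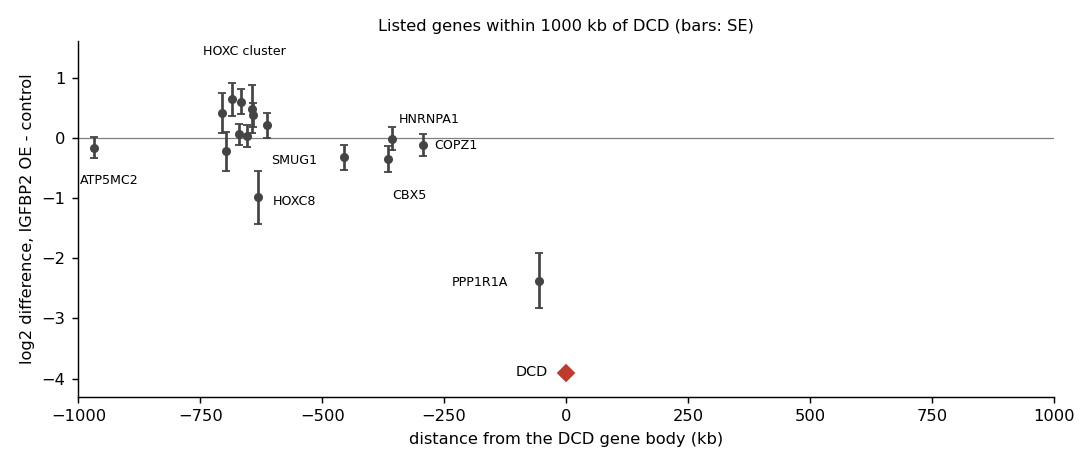
Log2 difference (IGFBP2 overexpression minus control) of the 16 listed neighbours (circles, bars of 1 SE) and of DCD (diamond, no bar) against distance from the DCD gene body in kb. DCD lies at -3.90 and PPP1R1A at -2.37, while the other neighbours lie between -0.99 and 0.64.

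PPP1R1A, an inhibitor of protein phosphatase 1 that is controlled by cyclic AMP signalling, lies 55.93 kb from DCD on the same strand (chromosome 12, 54575387 to 54588659). It stood at 27.7, 65.6 and 110 CPM in control and at 12.1, 6.78 and 14.1 CPM in IGFBP2 overexpression cells. The groups did not overlap, yet the control values spread over a wide range, and their order among the control libraries was unlike that of DCD. The mean was 67.9 ± 41.4 against 11.0 ± 3.79 CPM (SD, n = 3 each), a log2 difference of -2.37 (SE 0.46), which did not pass the threshold (limma, adjusted p = 0.0714). It passed under 5 of the 16 alternative settings, 1 of them the fit without control replicate 1, with adjusted p-values from 0.00446 to 0.242. Part of PPP1R1A overlaps PDE1B on the opposite strand, and the strand setting of the counting is not given in the sources used here, so reads of PPP1R1A and PDE1B may not be separable. The other 4 listed genes within 500 kb differed little. SMUG1 (a DNA repair glycosylase) had a log2 difference of -0.32, CBX5 (heterochromatin protein 1 alpha) of -0.35, HNRNPA1 (an RNA-binding protein) of -0.017 and COPZ1 (a coat subunit of transport vesicles) of -0.12. The 10 listed HOXC cluster genes are developmental transcription factors and antisense transcripts that include HOTAIR. They had a median of 0.29 and ranged from -0.99 for HOXC8 to 0.64 for HOXC12. Without 1 library the difference of HOXC8 lay between -1.47 and -0.54. Over the whole of chromosome 12, 551 genes had a median difference of 0.019.

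To place DCD among genes of its own biology, 5 lists were written for sweat and secretory gland genes, antimicrobial peptides, proteases and inhibitors that act on secreted peptides, survival and surface partners, and luminal or apocrine breast identity. Together they name 169 genes, of which 86 were listed and tested. The lists were written with earlier results of these data known, so their shares are a description and no independent support. Listing needed an average above 5 CPM in at least 1 group, which favours the group that passed. SAA1, C3, CFB and SERPINB5 passed only in IGFBP2 overexpression cells, and SPDEF, ELF5, AQP3, KLK7 and PRLR only in control. The test was limma on the log2(CPM + 1) values of all 10487 genes with Benjamini-Hochberg adjustment. Across the lists 2 genes rose and 1 fell, 3.49% of the listed members against 0.629% of all genes (0.429% higher and 0.2% lower), and 27 members had an unadjusted p under 0.05, against 13% of all genes. Groups did not overlap for 11 members on the higher side (12.8%, against 9.43% of all genes) and 13 on the lower side (15.1%, against 8.61%).

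**Figure D3:**
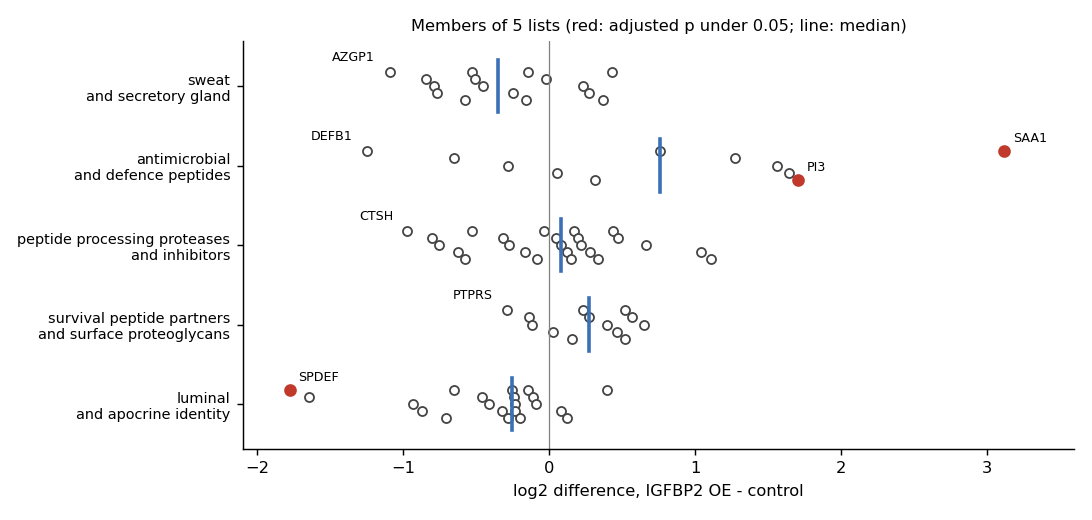
Log2 difference (IGFBP2 overexpression minus control) of every listed member of the 5 lists, one circle per gene, with blue lines at the list medians and red circles for genes past the limma threshold. Among the 86 members SAA1, PI3 and SPDEF are red, and the list medians lie between -0.35 and 0.76.

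Of 42 sweat and secretory gland genes, 16 were listed. None of the 16 passed the test in either direction, where 0.629% of all genes did. Differences were below 0 for 12 (75%, against 50.0% of all genes), and the median was -0.35, against 0.0001 for all genes. The median was -0.17 without control replicate 3 and -0.21 without IGFBP2 overexpression replicate 3. Groups did not overlap for 3 members on the lower side and 3 on the higher side (18.8% each, against 8.61% and 9.43% of all genes). The largest difference was that of AZGP1, a secreted zinc-binding glycoprotein of apocrine glands. AZGP1 stood at 244, 315 and 232 CPM in control and at 120, 99.4 and 151 CPM in IGFBP2 overexpression cells. Like DCD it was highest in control replicate 2 and lowest among the controls in replicate 3, with r = 0.97 over the 6 libraries and 0.79 for deviations from the group means. The log2 difference of AZGP1 was -1.09 (SE 0.22; limma, adjusted p = 0.0876), and it passed under 3 of the 16 alternatives. AQP3, a water and glycerol channel, had a difference of -0.85 with overlapping groups. ITPR2, a calcium release channel needed for sweat secretion, had one of -0.79 with groups that did not overlap, 25.5 to 33.1 CPM in control and 15.1 to 17.9 CPM in IGFBP2 overexpression cells.

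Proteases that cut secreted precursors and the inhibitors that hold them back had 25 of 39 genes listed, 0 called in either direction and a median of 0.083. That median was -0.056 without control replicate 3 and 0.036 without IGFBP2 overexpression replicate 3. Groups did not overlap for 3 members on each side (12% each, against 8.61% lower and 9.43% higher of all genes). The members furthest from 0 were SERPINB5 (an epithelial serpin, 1.11), CTSL (cathepsin L, 1.04) and CTSH (cathepsin H, -0.97). The difference of CTSL was 0.46 without control replicate 3, and that of CTSH was -0.63 without control replicate 2. Kallikreins, serine proteases of skin and sweat, were looked at as a subgroup after their values were seen. All 5 listed kallikreins of 8 had differences below 0, from -0.80 to -0.087 with a median of -0.58, and none passed the test. The most abundant on the CPM scale was KLK6, at 415 ± 144 CPM in control and 275 ± 25.9 CPM in IGFBP2 overexpression cells (SD, n = 3 each), with overlapping groups and a difference of -0.53. KLK5, which had the highest r with DCD of the 5, stood at 422, 429 and 318 CPM in control and 207, 219 and 262 CPM in IGFBP2 overexpression cells. The groups of KLK5 did not overlap, and the log2 difference was -0.76 (limma, adjusted p = 0.175). The 8 listed cathepsins had a median of 0.25, with 6 above 0. CTSD, cathepsin D, which can process the dermcidin precursor, had a difference of -0.28.

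Of 40 antimicrobial genes other than DCD, 11 were listed, 2 rose and 0 fell (18.2%, against 0.629% of all genes called in either direction). Of the 11, 8 had differences above 0 and 3 below, and the median was 0.76. The median was 0.27 without control replicate 1. Groups did not overlap for 3 members, each on the higher side (27.3%, against 9.43% of all genes). PI3, which encodes elafin, an inhibitor of elastase with antimicrobial activity, stood at 14.4, 18.1 and 31.1 CPM in control and at 69.4, 69.1 and 65.0 CPM in IGFBP2 overexpression cells. Every IGFBP2 overexpression library was above every control library, and the log2 difference was 1.70 (SE 0.27; limma, adjusted p = 0.0416). PI3 passed under 9 of the 16 alternatives, and of the 6 fits without 1 library only under the one without control replicate 3. SAA1, an acute phase protein, stood at 2.44, 2.78 and 0.809 CPM in control and at 19.1, 17.4 and 40.4 CPM in IGFBP2 overexpression cells, again with no overlap. Its log2 difference was 3.12 (SE 0.37; limma, adjusted p = 0.0148), and it passed under 16 of 16 alternatives. SAA1 has close paralogs with which reads may be shared. Its control values lay near the floor, since 1 read was 0.404 CPM in control replicate 3. DEFB1, a beta-defensin, had a difference of -1.25 that did not pass the test, with 1 high control library (145 CPM in replicate 2, against 20.4 and 46.9 CPM). Of the members above 0 that did not pass, named after their values were seen, ADM (adrenomedullin) had a difference of 1.64 with groups that did not overlap, and C3 (1.56) and CFB (1.27), both of the complement system, had overlapping groups. The other members below 0 were LCN2 (lipocalin 2, -0.65) and S100A9 (a calprotectin subunit, -0.28), both with overlapping groups. SAA1, C3 and CFB averaged 2.01, 3.83 and 4.87 CPM in control. They were thus listed only through the IGFBP2 overexpression cells, which favoured differences above 0.

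Genes tied to the survival activity of dermcidin and to its binding at the cell surface had 13 of 18 members listed, 0 called and a median of 0.27. Groups did not overlap for 2 members, both on the higher side (15.4%, against 9.43% of all genes). These were GPC4 (a glypican, difference 0.65) and CALR (calreticulin, 0.52), and SDC2 (syndecan 2) had a difference of 0.57 with overlapping groups.

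Luminal and apocrine identity genes had 21 of 30 members listed. Of these 0 rose and 1 fell (4.76%, against 0.629% of all genes called in either direction). Differences were below 0 for 18 members (85.7%, against 50.0% of all genes), and the median was -0.26. Groups did not overlap for 7 members, each on the lower side (33.3%, against 8.61% of all genes). The median was -0.40 without control replicate 1. The gene that fell was SPDEF, an ETS-family transcription factor of secretory and luminal epithelium. SPDEF stood at 6.66, 13.9 and 12.9 CPM in control and at 1.56, 3.23 and 2.63 CPM in IGFBP2 overexpression cells. Its groups did not overlap, but its lowest control library was replicate 1, where DCD was lowest in replicate 3. The log2 difference was -1.78 (SE 0.30; limma, adjusted p = 0.0433), and SPDEF passed under 8 of the 16 alternatives, of the 6 fits without 1 library only under the one without control replicate 1. ELF5, a further ETS-family factor of mammary secretory cells and named here after its values were seen, had a difference of -1.65 (limma, adjusted p = 0.0669). SPDEF and ELF5 averaged 2.47 and 1.48 CPM in IGFBP2 overexpression cells. Both were thus listed only through the control cells, which favoured differences below 0.

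Among the 163 genes whose log2 values had an SD of at least 1 over the 6 libraries, 19 had r above 0.8 with DCD and 39 had r below -0.8. Of these 163, the 8 most like DCD were LINC02515 (r = 0.95), TIMP3 (0.94), LINC01133 (0.93), NPR3 (0.92), FST (0.91), OSBP2 (0.90), SPDEF (0.89) and CELF2 (0.88). Without the minimum SD, 164 genes (1.56% of all) had r over 0.9. Among them AZGP1 (0.97), KLK5 (0.97) and ITPR2 (0.96) were closer to DCD than any of the 8. Each r rests on 6 points in 2 separate groups that share their libraries, and is a description. Accordingly all 8 genes had lower values in every IGFBP2 overexpression library than in any control library. For TIMP3, an inhibitor of matrix metalloproteinases, the likeness also extended within groups. TIMP3 stood at 206, 355 and 120 CPM in control and at 21.1, 21.6 and 70.3 CPM in IGFBP2 overexpression cells, and r of its deviations from the group means was 0.85. Like DCD it was highest in control replicate 2 and lowest among the controls in replicate 3. Of the 8 genes, 2 had control replicate 3 as their lowest control library.

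The other 7 of the 8 genes matched DCD mainly through the difference between groups, with r of deviations from -0.64 for CELF2 to 0.46 for LINC02515. FST went from 27.9 ± 14.9 to 1.44 ± 1.13 CPM (SD, n = 3 each), with 0.390, 1.29 and 2.63 CPM in the IGFBP2 overexpression libraries, all below the lowest value of DCD. NPR3, the clearance receptor for natriuretic peptides, went from 74.6 ± 21.1 to 12.02 ± 4.95 CPM. The long noncoding RNAs LINC02515 and LINC01133 had means of 16.3 and 80.7 CPM in control and of 1.39 and 21.8 CPM in IGFBP2 overexpression cells. OSBP2, an oxysterol-binding protein, went from 38.4 to 9.92 CPM, and CELF2, a splicing regulator, from 14.0 to 1.13 CPM. DCD had the highest control mean on the CPM scale of these 9 genes, with TIMP3 next at 227 CPM. The members of this group depended on how likeness was measured: rank correlation kept 3 of the 8, dropping the minimum SD kept 0, and leaving out single libraries kept between 1 and 7.

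**Figure D4:**
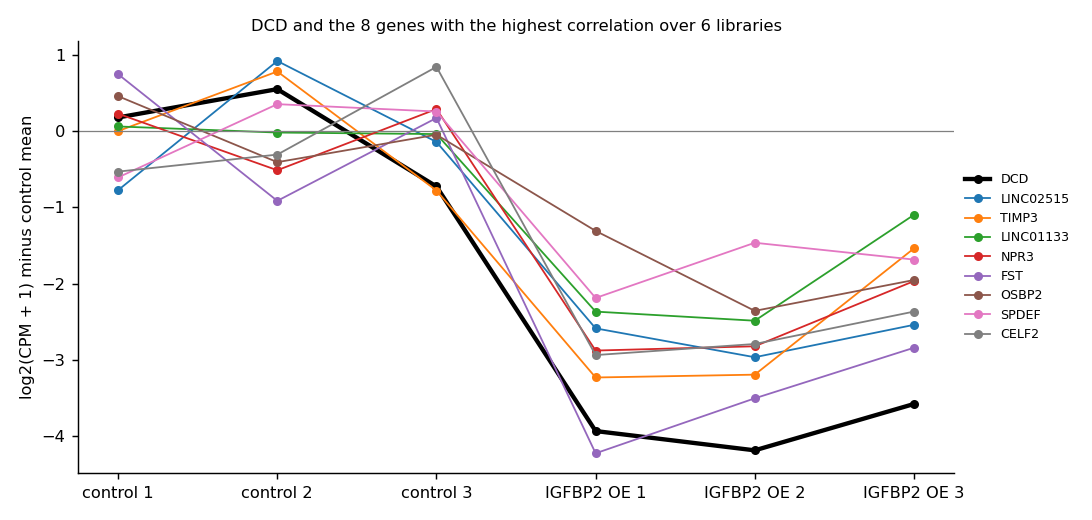
Log2(CPM + 1) in each library minus the mean of the 3 control libraries, for DCD (thick black line) and 8 other genes. These 8 are the most like DCD among genes with an SD of at least 1 over the 6 libraries. Lines join the libraries of one gene to guide the eye (OE, overexpression). All 9 genes lie lower in every IGFBP2 overexpression library than in any control library, and DCD and TIMP3 share a low control replicate 3.

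With the same minimum SD, the genes most opposite to DCD included TGFBI (an extracellular matrix protein, r = -0.98), IGFBP2 (-0.98) and DUSP9 (a phosphatase of MAP kinases, -0.98). TGFBI stood at 8.44 to 10.5 CPM in control and at 105 to 198 CPM in IGFBP2 overexpression cells. When only deviations from the group means were compared, again with that minimum SD, the genes most like DCD were ATAD3C (r = 0.98), DHRS3 (0.90), SAA1 (0.90) and LTB (0.89). Of these SAA1 and LTB had log2 differences of 3.12 and 3.76, opposite in sign to DCD. ATAD3C and SAA1 both had 0.809 CPM in control replicate 3, near the floor, since 1 read there was 0.404 CPM. ATAD3C (1.26) and DHRS3 (-1.34) did not pass the limma test, and DHRS3 had r = 0.78 with DCD over the 6 libraries. Without 1 library the difference of ATAD3C lay between 0.63 and 1.67, and that of DHRS3 between -1.91 and -0.77.

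Few markers of other cell types were among the listed genes, while those of the labelled cells were. Of 12 breast carcinoma epithelium markers, 11 were listed, with KRT19 the most abundant at a mean of 2718 CPM over all libraries. Their summed level was 6785, 5304 and 6460 CPM in control and 6923, 6972 and 5820 CPM in IGFBP2 overexpression cells, and the groups overlapped. This sum is led by KRT19, and 3 of its 11 members had groups that did not overlap. KRT6B was higher (a log2 difference of 1.65), 9.09% of the members against 9.43% of all genes. CLDN4 and CD24 were lower (-0.71 and -0.65), 18.2% of the members against 8.61% of all genes. None of the 3 passed the limma test. Skin keratinocyte markers, the list nearest to the tissue DCD is known from, had 2 of 12 genes listed (KRT10 and CALML5), and the defining KRT1, KRT2, FLG and LORICRIN were not among the listed genes. Their summed level was 268, 198 and 222 CPM in control and 291, 269 and 158 CPM in IGFBP2 overexpression cells, and the groups overlapped. The 2 genes went opposite ways: KRT10 had a difference of 0.53 with overlapping groups, whereas CALML5 stood at 132, 95.4 and 100.3 CPM in control and at 66.3, 64.9 and 46.0 CPM in IGFBP2 overexpression cells. The groups of CALML5, a calcium-binding protein of differentiating epidermis, did not overlap, and its difference was -0.88 (limma, adjusted p = 0.149; r = 0.85 with DCD). The part of other cells in the DCD level was not tested. Fibroblast markers had 1 of 8 genes listed (COL1A1, mean 15.4 CPM), melanocyte markers 1 of 5 (MITF, 13.1 CPM), and blood and endothelial markers 0 of 9 and 0 of 5. The listed genes are those above an average of 5 CPM in at least 1 group, so an unlisted marker had no value here.

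The libraries separated by group along the first principal component of all genes, which carried 37.7% of the variance, with scores of -15.4, -19.4 and -30.9 in control and 26.4, 25.4 and 13.9 in IGFBP2 overexpression cells. Control replicate 2, the library with the most DCD, stood apart along the second component (21.8% of the variance) with a score of -32.4. Without that library the log2 difference of DCD was -3.63, the third lowest of all genes, and without control replicate 3, the library with the least DCD among the controls, it was -4.27. Whether the position of control replicate 2 bears on its DCD level was not tested.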

How the data were processed

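RNA from 3 control and 3 IGFBP2 overexpression samples was read by 3′-end sequencing. Per the study's methods and the labels, the authors trimmed and aligned the reads to hg38, counted them per gene (HTSeq 0.9.1), normalized the counts, kept genes with an average above 5 CPM in at least 1 condition, and deposited the values as log2(CPM + 1). The deposited column names give the group, and replicate numbers were matched to the labels.

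CPM was taken back from the deposited log2 values, and whole reads were recovered from their steps (100% of values whole within 0.05 reads; 2497353 to 4579587 reads per library). limma 3.58.1 (R 4.3.3) was run on the log2 values as deposited, over all 10487 genes, with group as its single term and no trend. Calls were made at a Benjamini-Hochberg adjusted p of 0.05. The samples are called biological replicates, with nothing said of separate cultures, so p-values measure the spread between these samples. Read-based analysis used limma voom and totals scaled by library size, upper quartile, TMM or without the 10 most abundant genes. The other alternatives were pseudocounts of 0.1 and 5, a filter at 10 CPM, a trend, a replicate block and leaving out each library. The fits were tested on simulated reads.

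Likeness to DCD was Pearson's r over the 6 libraries. Named genes were the 8 most like and 4 most opposite genes, and the 4 most like in deviations from group means. Each of these had an SD of at least 1. Also named were listed genes within 500 kb, and for each list the members called and the 3 furthest from 0. One gene chosen by this rule is not reported here. DCD, the gene lists and the motifs were chosen with earlier results of these data known. Symbols and positions came from GENCODE 44 (10462 of 10487 identifiers matched), and promoter sequence from RefSeq GRCh38.p14. Python 3.11.15 was used for the remaining steps.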

Additional observations from a re-analysis of the deposited data

How the results depend on the processing

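The difference of DCD, on which it was chosen, repeated the reported value in 4 of 16 alternatives (TMM, the 10 CPM filter, the trend and the replicate block), which is no sign of stability. Under the other 12 it ranged from -4.27 (without control replicate 3) to -3.60 (pseudocount 5), and was the lowest of all genes in 9 of the 12. FST was lower with a pseudocount of 0.1, with limma voom and without control replicate 2. Its control rank of 638 lay between 505 and 880 when a control library was left out. Genes called by limma numbered 66, against 37 with a pseudocount of 0.1, 129 with a pseudocount of 5, 160 with a trend, 141 with limma voom and 12 to 79 without 1 library. List members called numbered 3, against 1, 5, 6 and 5 under the same 4 settings and 1 to 3 without 1 library. Neighbours of DCD called numbered 0, against 1 (PPP1R1A) with a pseudocount of 5, with a mean above 10 CPM, with a trend and with limma voom, and 0 to 1 without 1 library. The cause of these changes was not tested. HNRNPA1 reversed in sign, to 0.0062 with upper-quartile scaling, and lay between -0.14 and 0.064 without 1 library. Of 507 combinations of a named gene and an alternative, 439 kept their direction and side of the threshold, 50 no longer passed, 13 newly passed and 5 changed sign.

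Replicate numbers did not pair the samples: the correlation of deviations from the group means was 0.17, -0.064 and 0.084 for numbers 1, 2 and 3. With the replicate number as a block, 55 genes were called, of which 42 were also called without it. The planned edgeR quasi-likelihood test of the recovered reads was not run, and limma voom was the only fit of those reads with a variance model for counts. Genes averaging 5 CPM or less in both groups were not listed, which limits what can be said of the lists, since 86 of the 169 named genes had a value.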
